A study of Rattus norvegicus with 71 samples.

Results

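A set of 33 chromatin regulators whose loss or change of 1 copy is linked to autism and related neurodevelopmental conditions in people was examined in the brains of newborn rats. The set was defined by gene symbol alone. Of the 33 symbols, 21 had a row in the table of 17494 genes, and those 21 are the members described here. All 21 passed every filter on low counts. The other 12 symbols (Chd3, Arid1b, Arid2, Asxl1, Asxl3, Kmt2a, Kmt2c, Setd1a, Phf21a, Mbd5, Smarcc2 and Nipbl) were not analysed here.

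The 71 samples were wild-type (WT) Sprague-Dawley pups, 35 males and 36 females of 27 litters, taken on postnatal day 2 (PND2). Each sample was poly-A RNA from 1 coronal brain slice that held the hippocampus with adjoining cortex and subcortical tissue. The dams had been immunized before pregnancy so that they made autoantibodies of the kind found in maternal autoantibody-related autism (MARA). The 47 exposed pups fell into 4 patterns named by the antigens. The dams of 8 pups of 4 litters had received CRMP1+CRMP2 (collapsin response mediator proteins). The dams of 6 pups of 3 litters had received CRMP1+GDA (guanine deaminase). The dams of 25 pups of 9 litters had received LDHA/B+CRMP1+STIP1 (lactate dehydrogenase A and B, and stress-induced phosphoprotein 1). The dams of 8 pups of 4 litters had received STIP1+NSE (neuron-specific enolase). The 24 control pups came from 7 litters whose dams received saline with the same adjuvant, so both arms carry the adjuvant and differ in the antigen. The libraries were made and sequenced in 2 batches. The controls were split evenly, 12 to each batch. Of the LDHA/B+CRMP1+STIP1 pups 16 were in batch 1 and 9 in batch 2, and the pups of the other 3 patterns were all in batch 2. Each litter had 1 exposure, so litter and exposure are nested, and litter mates are not independent samples of an exposure.

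Chromatin regulators set which genes a cell can read. Remodellers of the CHD and BAF families slide or evict nucleosomes with the energy of ATP, methyltransferases and demethylases write and erase methyl marks on histone tails, and DNA-binding proteins such as Ctcf and Adnp shape chromatin loops or recruit remodellers. In the newborn cortex and hippocampus neurons are leaving the cell cycle, migrating and extending processes, and many of these regulators are needed in the right dose for that step. In a bulk slice, fewer cells of a type and less RNA per cell cannot be told apart.

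The libraries held 24880182 to 36234952 counts each, and no member had fewer than 525 reads in any library. No pair of libraries was alike within sampling noise. Summed markers of postmitotic neurons were at 8584 to 11858 CPM (counts scaled to a common library total) and those of neural progenitors at 989 to 1698 CPM. These markers show newborn neural tissue in every library, and markers particular to the hippocampus or cortex were not examined. The choroid plexus, the secretory tissue of the ventricles, varied widely: its 8 markers summed to 3.39 to 588 CPM in batch 1 and to 139 to 3374 CPM in batch 2. Hox genes, 5 markers of hindbrain and spinal cord, also varied. They summed to 0 in the lowest library of every group, to 56.2 CPM in the highest of CRMP1+CRMP2 and to 120 CPM in the highest of CRMP1+GDA. The highest library had 81.7 CPM in LDHA/B+CRMP1+STIP1 of batch 2 and 38.8 CPM in the batch 1 controls. In the other groups the highest was at 0.531 to 8.49 CPM.

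All 21 members were expressed in every library. Levels are given as RPKM (CPM with TMM-scaled library sizes, divided by the kilobases of annotated exon), and the order below compares medians over all 71 libraries. The highest was Smarca4, the ATPase of the BAF complex, with a median of 78.2 RPKM and a range of 64.1 to 98.4. Next came Tcf4, a basic helix-loop-helix transcription factor, with a median of 52.5 RPKM (40.2 to 96.4), then Adnp, a homeodomain zinc-finger protein that recruits remodellers, with 43.6 RPKM (35.6 to 55.0). Arid1a, the large DNA-contacting BAF subunit, followed with 40.2 RPKM (28.9 to 60.4). The lowest was Chd7, a remodeller that acts at enhancers, with 3.17 RPKM (1.49 to 6.98). Chd2 had a median of 9.47 RPKM (5.60 to 15.6), Ash1l, a histone H3 lysine 36 methyltransferase, 13.8 RPKM (8.93 to 22.7) and Setd2, the main enzyme for trimethylation at the same residue, 19.1 RPKM (14.4 to 26.2). The ranges of neighbours in this order overlapped at every step, and only Smarca4, Setd2 and Chd2 had a lowest library above the median of the member ranked next below. By median RPKM the members lay between the 21.6th percentile (Chd7) and the 90.4th percentile (Smarca4) of the 12477 genes tested. The annotated exon length is a multiple of 3 for 11 of the 21 members and for 42.6% of all genes of the table. Such a length can mean that a gene model holds coding sequence only, so the levels of 2 genes are comparable only as far as their models are. No member shares exon bases with another gene of the table.

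The members are long transcripts. Their median exon length was 6502 bases, against 2226 bases over all tested genes, and 4.08% of tested genes were at least as long. Of the 21, 16 had at least 5000 exon bases, from 5568 in Smarca4 to 12520 in Trrap, a scaffold of histone acetyltransferase complexes. The shortest model was that of Tcf4, with 2025 bases.

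The first question was whether exposure to a given pattern of maternal autoantibodies came with other levels of these regulators than in saline controls. CRMP1+CRMP2 was the pattern in which members passed the test. At a false discovery rate (FDR) below 0.1, 8 members rose and 0 fell, by 0.14 to 0.40 on the log2 scale. They were 2 demethylases (Kdm6b and Kdm5b), 4 methyltransferases (Ehmt1, Ash1l, Kmt5b and Setd2), the BAF subunit Arid1a and the transcription factor Tcf4. The test was edgeR's quasi-likelihood test with 1 surrogate variable, on 8 exposed against 24 control libraries, with Benjamini-Hochberg adjustment over 12691 genes. In that fit 4.83% of all genes were called higher and 6.56% lower. At an unadjusted p below 0.05 14 members were higher, a level that 11.2% of all genes passed in that direction. All 21 fold changes were above 0, with a median of 0.19 against 0.01 over all genes tested. The 8 calls were not kept when 1 library was left out. Without the CRMP1+CRMP2 male with the highest mean over the members, 0 members passed FDR below 0.1 (0.686% of all genes were called higher). In that fit 8 were higher at p below 0.05 (5.92% of all genes were), and all 21 estimates stayed above 0, with a median of 0.14.

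Kdm6b, which removes the repressive methyl mark from lysine 27 of histone H3, had the smallest p of the members. It ranged from 25.0 to 44.8 RPKM with a median of 28.7 in the 8 CRMP1+CRMP2 libraries, from 17.5 to 37.1 with a median of 22.2 in the 12 batch 2 controls, and from 24.5 to 38.2 with a median of 27.9 in the 12 batch 1 controls. All 8 exposed libraries were above the median of the batch 2 controls, 1 was above the highest of them, and the exposed median was close to that of the batch 1 controls. The log2 fold change was 0.33 ± 0.09 (SE; edgeR adjusted p = 0.0273). The medians of the other patterns were 22.3 RPKM in CRMP1+GDA, 22.9 in STIP1+NSE, and 31.3 and 26.2 in LDHA/B+CRMP1+STIP1 of batch 1 and batch 2. Kdm6b lies on chromosome 10 of rn7 at 54121848 to 54129800 (minus strand, 18 exons).

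Kdm5b, an eraser of the active methyl mark on lysine 4 of histone H3, ranged from 30.4 to 51.3 RPKM with a median of 36.3 in the CRMP1+CRMP2 libraries. The batch 2 controls were at 24.6 to 39.1 with a median of 31.2 and the batch 1 controls at 31.5 to 44.8 with a median of 34.5. Of the 8 exposed libraries, 7 exceeded the batch 2 control median, and 2 exceeded the highest batch 2 control. Its log2 fold change was 0.24 ± 0.07 (SE; edgeR adjusted p = 0.0310). Medians were 28.7 RPKM in CRMP1+GDA, 32.5 in STIP1+NSE, and 35.97 and 31.6 in LDHA/B+CRMP1+STIP1 of batch 1 and batch 2. The gene lies on chromosome 13 at 46002542 to 46073868 (plus strand, 27 exons).

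Tcf4 had the largest change of the 21 members. It ranged from 50.8 to 95.6 RPKM with a median of 67.0 in CRMP1+CRMP2, from 42.1 to 87.0 with a median of 51.4 in the batch 2 controls and from 40.2 to 75.1 with a median of 49.5 in the batch 1 controls. All 8 exposed libraries were above the batch 1 control median and 6 were above the batch 2 control median, while 1 exceeded every batch 2 control. The log2 fold change was 0.40 ± 0.11 (SE; edgeR adjusted p = 0.0411). Medians were 49.8 RPKM in CRMP1+GDA, 55.9 in STIP1+NSE, and 59.9 and 53.4 in LDHA/B+CRMP1+STIP1 of batch 1 and batch 2. Tcf4 lies on chromosome 18 of rn7 at 63059456 to 63283342 (plus strand, 17 exons).

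Ehmt1, a methyltransferase for lysine 9 of histone H3, ranged from 30.03 to 43.2 RPKM with a median of 32.4 in CRMP1+CRMP2, from 28.4 to 33.5 with a median of 30.3 in the batch 2 controls and from 30.8 to 38.9 with a median of 33.8 in the batch 1 controls. The exposed median was thus above that of the batch 2 controls and below that of the batch 1 controls, and 3 of 8 exposed libraries exceeded every batch 2 control. The log2 fold change was 0.14 ± 0.04 (SE; edgeR adjusted p = 0.0416). Medians were 30.8 RPKM in CRMP1+GDA, 30.99 in STIP1+NSE, and 35.997 and 32.3 in LDHA/B+CRMP1+STIP1 of batch 1 and batch 2. The gene lies on chromosome 3 at 7580683 to 7728937 (minus strand, 26 exons).

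Ash1l ranged from 12.5 to 20.9 RPKM with a median of 15.2 in CRMP1+CRMP2, from 8.93 to 17.5 with a median of 12.3 in the batch 2 controls and from 11.7 to 19.7 with a median of 14.7 in the batch 1 controls. All 8 exposed libraries were above the batch 2 control median and 2 were above its highest library. The difference was 0.29 ± 0.09 on the log2 scale (SE; edgeR adjusted p = 0.0665). Medians were 10.4 RPKM in CRMP1+GDA, 13.1 in STIP1+NSE, and 14.7 and 12.2 in LDHA/B+CRMP1+STIP1 of batch 1 and batch 2. The gene lies on chromosome 2 at 174347115 to 174483055 (plus strand, 26 exons).

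Arid1a ranged from 37.1 to 60.4 RPKM with a median of 43.1 in CRMP1+CRMP2, from 28.9 to 51.0 with a median of 36.4 in the batch 2 controls and from 36.7 to 51.3 with a median of 41.02 in the batch 1 controls. All 8 exposed libraries were above the batch 2 control median and 1 was above its highest library. Its log2 fold change was 0.24 ± 0.08 (SE; edgeR adjusted p = 0.0720). Medians were 31.98 RPKM in CRMP1+GDA, 38.7 in STIP1+NSE, and 43.4 and 36.7 in LDHA/B+CRMP1+STIP1 of batch 1 and batch 2. The gene lies on chromosome 5 at 145908181 to 145951214 (minus strand, 19 exons).

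Kmt5b, which adds methyl groups to lysine 20 of histone H4, ranged from 22.4 to 31.3 RPKM with a median of 24.6 in CRMP1+CRMP2, from 19.2 to 28.9 with a median of 22.04 in the batch 2 controls and from 21.1 to 30.6 with a median of 23.2 in the batch 1 controls. All 8 exposed libraries were above the batch 2 control median and 1 was above its highest library. The difference was 0.17 ± 0.06 on the log2 scale (SE; edgeR adjusted p = 0.0786). Medians were 20.9 RPKM in CRMP1+GDA, 22.6 in STIP1+NSE, and 24.5 and 23.1 in LDHA/B+CRMP1+STIP1 of batch 1 and batch 2. The gene lies on chromosome 1 at 201000444 to 201049819 (plus strand, 12 exons).

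Setd2 ranged from 17.1 to 26.2 RPKM with a median of 20.8 in CRMP1+CRMP2, from 15.8 to 21.03 with a median of 18.3 in the batch 2 controls and from 17.8 to 24.8 with a median of 20.4 in the batch 1 controls. Of the 8 exposed libraries, 6 were above the batch 2 control median and 4 were above its highest library. The log2 fold change was 0.17 ± 0.06 (SE; edgeR adjusted p = 0.0948). Medians were 16.1 RPKM in CRMP1+GDA, 18.1 in STIP1+NSE, and 21.9 and 18.1 in LDHA/B+CRMP1+STIP1 of batch 1 and batch 2. The gene lies on chromosome 8 at 110511953 to 110597489 (plus strand, 21 exons). In none of the 8 members did the CRMP1+CRMP2 libraries stand clear of the controls of either batch.

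**Figure D1:**
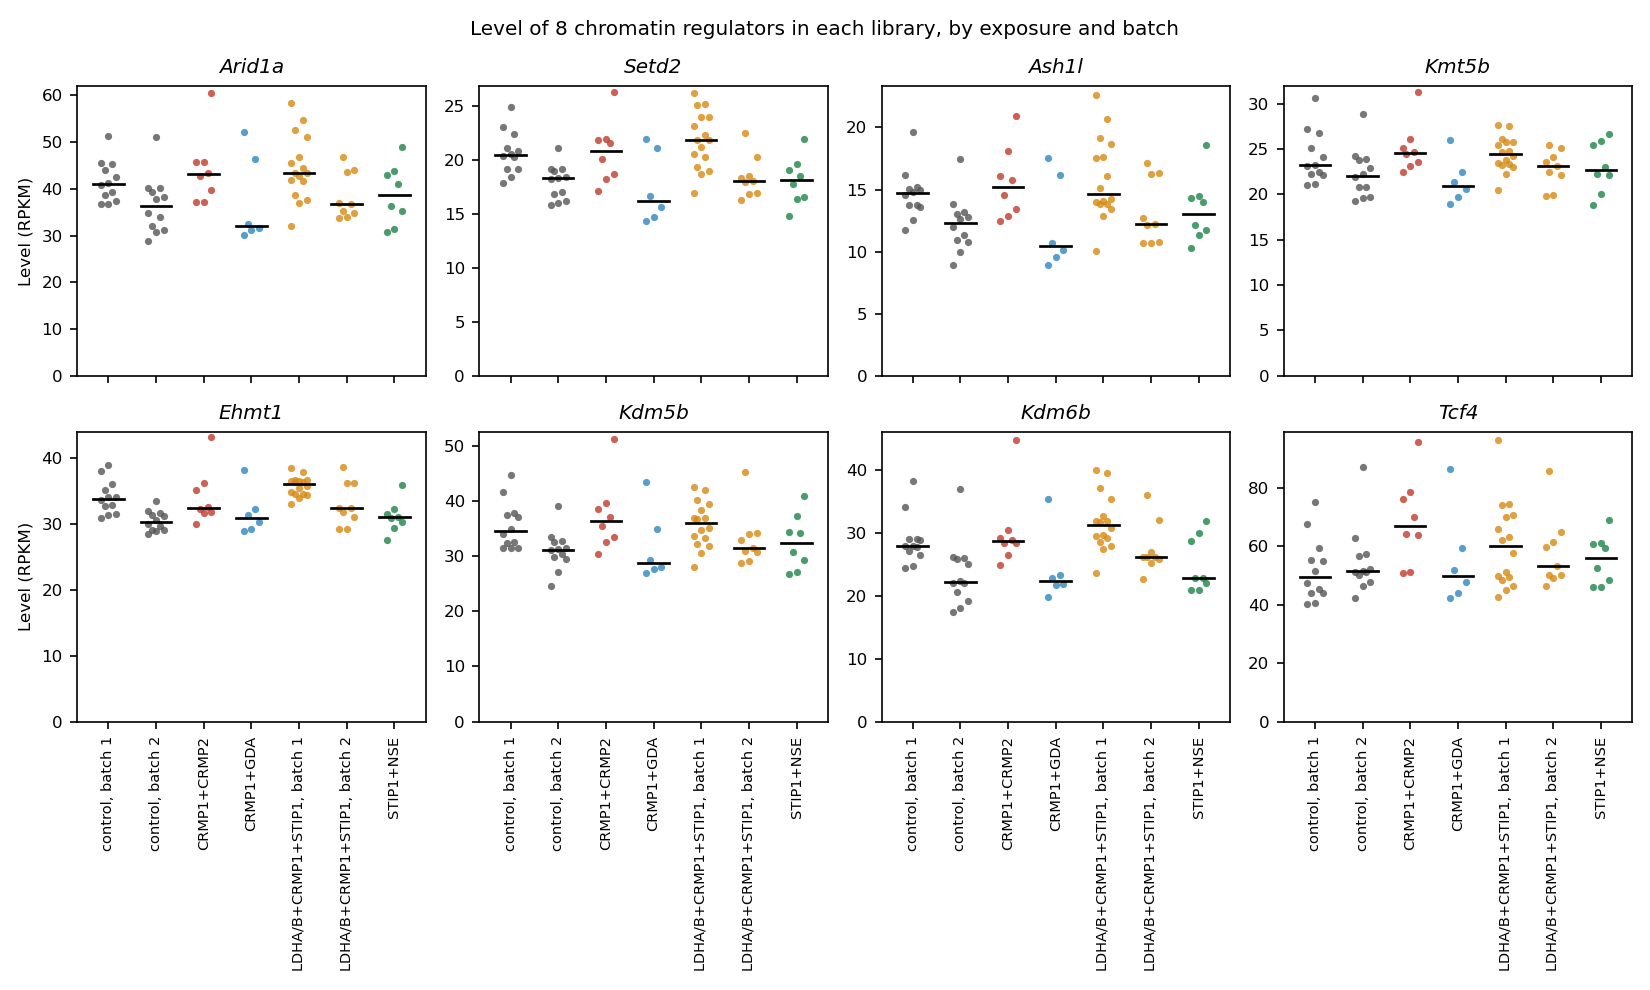
Level in RPKM (vertical axis, from 0) of the 8 members called in CRMP1+CRMP2 in each library (points), by exposure and batch; black lines are group medians. The CRMP1+CRMP2 points overlap the controls in every panel, and for Kdm6b all 8 lie above the batch 2 control median of 22.2 RPKM.

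By role, the members that did not pass had these values in CRMP1+CRMP2. None of the 3 measured CHD remodellers passed. Chd8, which represses targets of the Wnt pathway, had a log2 fold change of 0.19 ± 0.08 (SE; edgeR adjusted p = 0.129), Chd2 had 0.17 ± 0.13 and Chd7 had 0.19 ± 0.15. Among the 7 methyltransferase-family members, Kmt2e was at 0.20 ± 0.09, Nsd1, another enzyme for lysine 36 of histone H3, at 0.19 ± 0.09 and Setd5 at 0.09 ± 0.06. Among the 3 of the demethylase family, Phf2 was at 0.11 ± 0.05. The BAF ATPase Smarca4 was at 0.10 ± 0.05. Among the 6 DNA-binding and scaffold proteins, Ctcf, the insulator protein of chromatin loops, was nearest to the threshold at 0.11 ± 0.04 (edgeR adjusted p = 0.104), and Pogz was at 0.20 ± 0.08 (adjusted p = 0.109). Trrap had the widest error, at 0.30 ± 0.16, with Adnp at 0.09 ± 0.05 and Tcf20 at 0.09 ± 0.05.

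**Figure D2:**
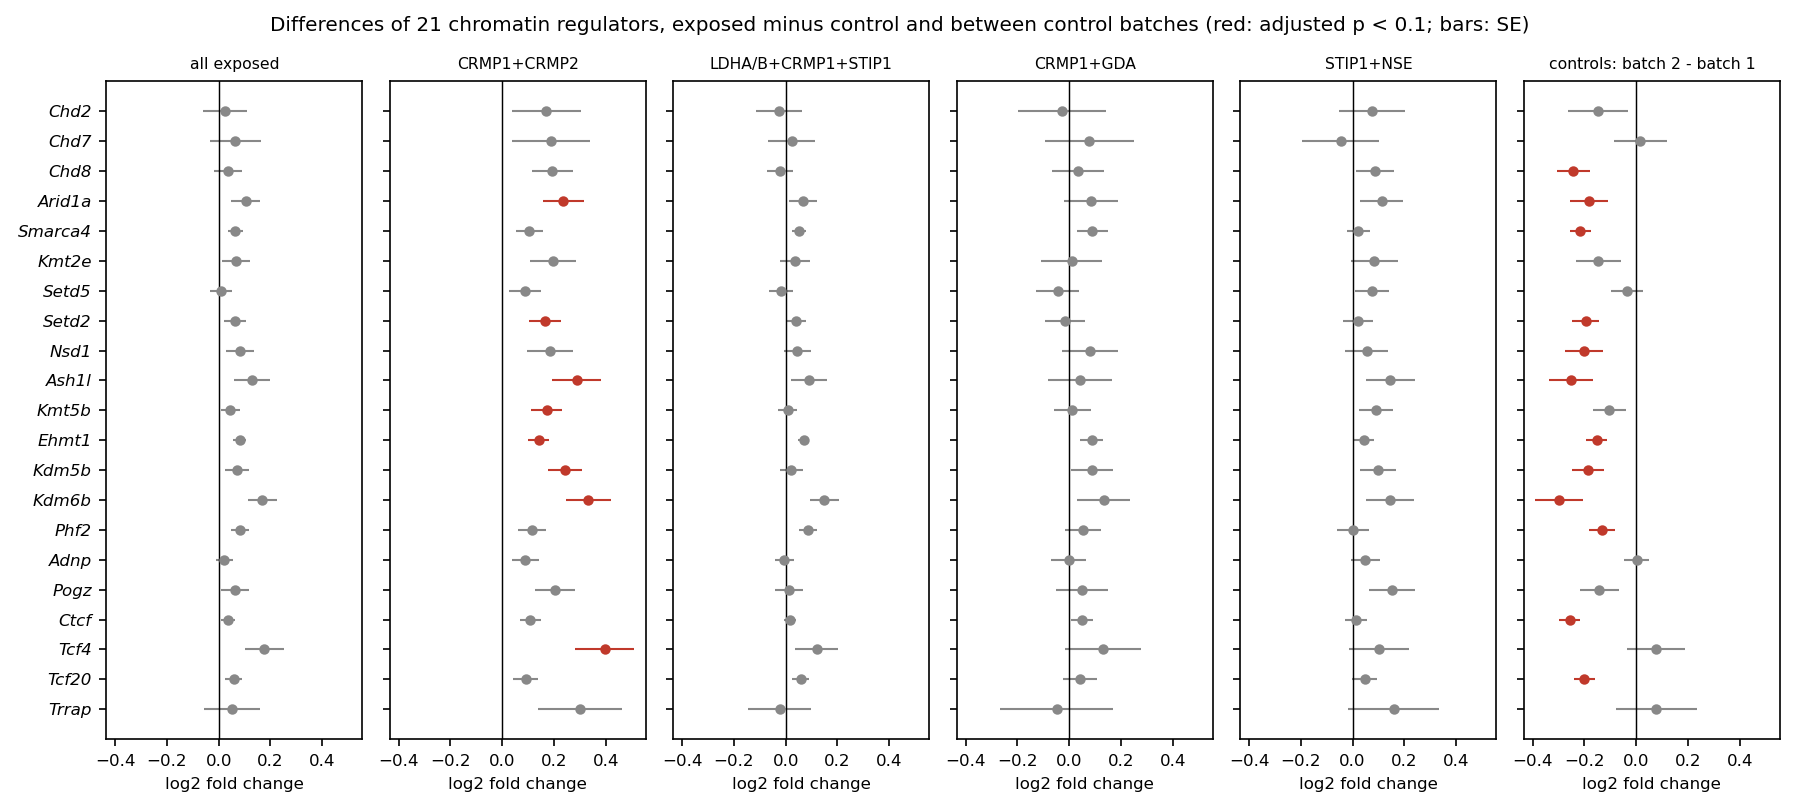
Log2 fold change (horizontal axis, points, with SE as bars) of each of the 21 members (rows) in 5 comparisons of exposed with control libraries, and between the control libraries of the 2 batches. Red points have an adjusted p below 0.1, which 8 members reach in CRMP1+CRMP2, all higher, and 12 reach between the control batches, all lower in batch 2.

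All CRMP1+CRMP2 pups were in batch 2. Against the 12 controls of that batch alone, with sex as covariate, the median of the members was 0.23, 16 were higher at p below 0.05 (9.46% of all genes were) and 0 passed FDR below 0.1, with the smallest adjusted p, 0.113, in Kdm6b (log2 fold change 0.40 ± 0.12, SE; edgeR). With counts summed per litter, so that n was 4 litters against 7, 11 members were higher at p below 0.05 (5.21% of all genes) and 0 passed. With litter as a random effect (limma), 10 were higher at p below 0.05 (6.73% of all genes) and 0 passed, Kdm6b again having the smallest adjusted p, 0.136. The log2 fold changes of the 8 called members were 0.16 to 0.40 within batch 2, 0.15 to 0.39 in litter sums and 0.14 to 0.45 with the random effect.

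The litters of CRMP1+CRMP2 were unequal. The mean over the 21 members, as log2 CPM minus each member's mean over all libraries, was 0.48 and 0.22 in the 2 males of the litter of dam 9_6, 0.17 and 0.19 in that of dam 9_11, -0.01 and 0.05 in that of dam 9_1, and -0.14 and -0.11 in that of dam 9_16. The batch 2 controls ranged from -0.43 to 0.25 and the batch 1 controls from -0.16 to 0.34. Left out in turn, the litter of dam 9_6 left 0 members past FDR below 0.1 (0.237% of all genes were called higher), that of dam 9_11 left 1 (2.79%), that of dam 9_1 left 11 (5.72%) and that of dam 9_16 left 17 (10.8%). Left-out control litters gave 4 to 13, with 2.69% to 11.3% of all genes called higher, and the 13 came without the litter of dam 9_10 (11.3%).

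Markers of several cell types and tissues moved with the same comparison. All 8 choroid plexus markers were higher in CRMP1+CRMP2 (median log2 fold change 2.05), with sums of 198 to 3374 CPM against 139 to 2906 CPM in the batch 2 controls and 4.04 to 113 CPM in the batch 1 controls. All 7 pineal markers, of which Otx2 is on both lists, were higher as well (median 3.84), with sums of 14.6 to 291 CPM against 12.4 to 23.5 and 2.91 to 8.19 CPM, and no marker of either list was at 0 throughout these groups. That rise was uneven: the median pineal sum was 19.2 CPM against 15.9 CPM in the batch 2 controls. The mean log2 CPM of these markers was 4.39 and 2.75 in the female pups of dams 9_1 and 9_11, against a group median of -0.60. With the same filter 7 markers were tested in STIP1+NSE, 4 in CRMP1+GDA and 3 in LDHA/B+CRMP1+STIP1. Some therefore passed it only through libraries where they were high. Of the 12 neuron markers, 3 were lower (Stmn2, Syt1 and Camk2a; median of the list -0.12), with sums of 8584 to 10593 CPM against 9255 to 10708 in the batch 2 and 9857 to 11835 in the batch 1 controls. Of 10 progenitor markers Sox2 was lower (median -0.11), and of 8 oligodendrocyte-lineage markers Sox10 and Olig1 were lower (median 0.03). Of 6 red blood cell markers Hbb was higher (median 0.51), with sums of 705 to 2177 CPM against 353 to 1827 in the batch 2 controls. None of the markers of astrocytes, microglia, vessels or meninges passed FDR below 0.1 (edgeR), with 0, 1, 3 and 1 higher at p below 0.05. The part of these cells in the differences of the members was not tested. With the mean log2 CPM of the choroid plexus markers as a further covariate, chosen after the data were seen, 19 members passed FDR below 0.1, in a fit that called 7.71% of all genes higher. With that of the pineal markers 0 passed and 16 were higher at p below 0.05 (8.24% of all genes). The share of counts in other genes of at least 5000 exon bases was 15.9% to 20.5% in CRMP1+CRMP2, against 13.9% to 19.2% in the batch 2 controls and 15.2% to 19.4% in the batch 1 controls. With that share as a covariate, 0 members passed and the median of the members was 0.02. At p below 0.05, 4 were higher (8.51% of all genes), namely Kdm6b, Ehmt1, Kdm5b and Tcf4, and 1 was lower (9.60%), Chd2. Over the 27 litters that share and the mean of the members were closely related (r = 0.96). This fit therefore cannot separate a difference of the members from a difference in that share.

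Other subunits and enzymes of the same pathways were taken from 11 lists of partner genes, 158 genes in all, of which 130 were in the table and tested. In CRMP1+CRMP2, 16 of the 130 rose and 5 fell at FDR below 0.1, with a median log2 fold change of 0.07. Of all genes in that fit 4.83% were called higher and 6.56% lower. Of 15 other demethylases and CoREST subunits, 3 rose, the corepressor Rcor1 (0.26 ± 0.06, SE; edgeR adjusted p = 0.0116), Kdm1a (0.15 ± 0.05) and Kdm3a (0.17 ± 0.06). Of 9 other methyltransferases for lysine 36, lysine 20 and lysine 9, Kmt5a rose by 0.24 ± 0.06 (adjusted p = 0.0173), Kmt5c rose by 0.37 ± 0.13 and Smyd2 fell by 0.11. Of 3 other CHD remodellers, Chd1 rose by 0.25 ± 0.07. The 21 other BAF and PBAF subunits were split, with 2 that rose, among them Ss18 (0.18 ± 0.07), and 2 that fell, Smarcd3 (-0.16 ± 0.05) and the neuronal actin-like subunit Actl6b (-0.12 ± 0.04). Among 14 Polycomb and BAP1 genes, Ezh2, the methyltransferase opposed by Kdm6b, rose by 0.21 ± 0.08 and Bap1 fell by 0.10. Among 10 acetyltransferase genes Ep400 rose by 0.26 ± 0.08 and Kat5 fell by 0.13. Of 9 COMPASS subunits, Hcfc1 rose by 0.20 ± 0.07, and of 15 NuRD and HDAC genes, Sin3a rose by 0.15 ± 0.05. Of 21 other autism-linked transcription factors, 4 rose, among them Nfib (0.41 ± 0.12), Cux2 (0.29 ± 0.09) and Rfx3 (0.29 ± 0.10). None of 10 cohesin genes or 5 DNA methylation genes passed. Within batch 2 alone, Rcor1 (edgeR adjusted p = 0.0939) and Sin3a (adjusted p = 0.0939) were the partner genes among these 21 that kept an adjusted p below 0.1. In that fit 0.397% of all genes were called higher and 0.611% lower. These 21 genes were picked in the fit above, which holds the same exposed libraries and batch 2 controls. Keeping a call is therefore not independent support, and the other partner genes are not given for batch 2 alone.

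The patterns were also compared with each other inside batch 2, with sex as covariate. In none of the 6 pairs did a member pass FDR below 0.1 by edgeR or by DESeq2. By edgeR 0 of the 12384 genes tested passed in any pair, in either direction. By DESeq2 at most 0.0161% of all genes were called higher and at most 0.0404% lower. CRMP1+CRMP2 minus CRMP1+GDA had the largest member median, 0.23, with 6 members higher at p below 0.05 (6.73% of all genes were), led by Kmt5b (0.23 ± 0.09, SE; edgeR adjusted p = 0.303) and Setd2 (0.25 ± 0.10, adjusted p = 0.303). CRMP1+CRMP2 minus STIP1+NSE had a median of 0.17 and 4 members higher at p below 0.05 (2.75% of all genes). There were 0 when litter was a random effect (0.646%). CRMP1+CRMP2 minus LDHA/B+CRMP1+STIP1 had a median of 0.17 and 0 members at that level (3.43% of all genes). In each of these 3 pairs all 21 fold changes were above 0. The other 3 pairs had 0 members at p below 0.05 in either direction and medians of 0.06, -0.01 and -0.06. In these 3 pairs 2.03% to 2.12% of all genes were higher at that level and 1.26% to 2.19% lower. A difference between CRMP1+CRMP2 and the other patterns was therefore not shown for any single member after adjustment.

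The second question was whether exposure of any kind came with a change, pooled over the 47 exposed and 24 control libraries. No member passed FDR below 0.1 by edgeR or by DESeq2, in a comparison in which edgeR called 0.0321% of the 12477 genes higher. At an unadjusted p below 0.05 5 members were higher and 0 lower, against 6.08% of all genes higher. They were Ehmt1 (0.08 ± 0.02, SE; edgeR adjusted p = 0.268), Kdm6b (0.17 ± 0.06, adjusted p = 0.304), Phf2 (0.08 ± 0.03, adjusted p = 0.379), Tcf4 (0.18 ± 0.08, adjusted p = 0.398) and Smarca4 (0.06 ± 0.03, adjusted p = 0.440). The median of the members was 0.06 against 0.003 over all genes, and all 21 estimates were above 0. That direction depended on the fit. With 7 principal components (axes of largest spread between libraries) as covariates, a model the study also used, 4 estimates were below 0 and the median was 0.03. With the share of counts in long genes, 6 were below 0, 1 of them (Chd2) at p below 0.05, and the median was 0.03. With 1 litter left out 0 to 4 were below 0. Within batch 2 alone 0 members were higher at p below 0.05 (3.50% of all genes), and with counts summed per litter 1 was (1.20%). In these 71 libraries Ehmt1 had 32.3 ± 2.8 RPKM in controls (SD, n = 24) and 33.6 ± 3.3 in exposed pups (SD, n = 47), and Kdm6b had 26.2 ± 5.3 and 28.6 ± 5.5, so the differences were smaller than the spread between libraries of a group. Of the 130 partner genes, 15 were higher, 1 was lower at p below 0.05 and 0 passed FDR below 0.1.

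LDHA/B+CRMP1+STIP1, the pattern present in both batches, had 0 members past FDR below 0.1 by edgeR (0.0157% of all genes were called higher) or by DESeq2 and 3 higher at p below 0.05 (3.95% of all genes). These were Ehmt1 (0.07 ± 0.02, SE; edgeR adjusted p = 0.359), Kdm6b (0.15 ± 0.06, adjusted p = 0.504) and Phf2, a demethylase that reads methylated lysine 4 (0.09 ± 0.03, adjusted p = 0.534). Within batch 1, Phf2 was the member at that level (0.12 ± 0.04, 2.96% of all genes), with a median of 25.0 RPKM in 16 exposed pups against 23.3 in 12 controls. Within batch 2, Ehmt1 (0.11 ± 0.05) and Kdm6b (0.22 ± 0.10) were (2.98% of all genes). Neither was at p below 0.05 in batch 1, and with litter as a random effect 0 members were in batch 2 (0.487% of all genes). The interaction of batch and exposure had 0 members at p below 0.05 in either direction (2.89% of all genes), so a difference between the batches was not detectable for any member.

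CRMP1+GDA and STIP1+NSE had 0 members past FDR below 0.1 or p below 0.05 by edgeR, and 0 by DESeq2. In CRMP1+GDA (6 against 24 libraries) 16 estimates were above 0 and 5 below, with a median of 0.05 and a range of -0.05 to 0.13. There 0% of all genes were called higher at FDR below 0.1 and 1.62% at p below 0.05. In STIP1+NSE (8 against 24) 19 estimates were above 0 and 2 below, with a median of 0.08 and a range of -0.05 to 0.16, and the corresponding shares were 0.0474% and 1.55%. The 4 patterns share their controls, so these sets of estimates are not independent of each other. In CRMP1+GDA the 3 litters lay far apart. The mean over the members was -0.36 and -0.27 in the litter of dam 9_3, -0.30 and -0.23 in that of dam 9_18, and 0.16 and 0.29 in that of dam 9_8. Leaving out 1 litter moved the member median of CRMP1+GDA between -0.12 and 0.15. Without the litter of dam 9_8, 19 members had estimates below 0 and 7 were lower at p below 0.05 (7.38% of all genes were). Without that of dam 9_3, all 21 were above 0 and 4 were higher at that level (2.83%).

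**Figure D3:**
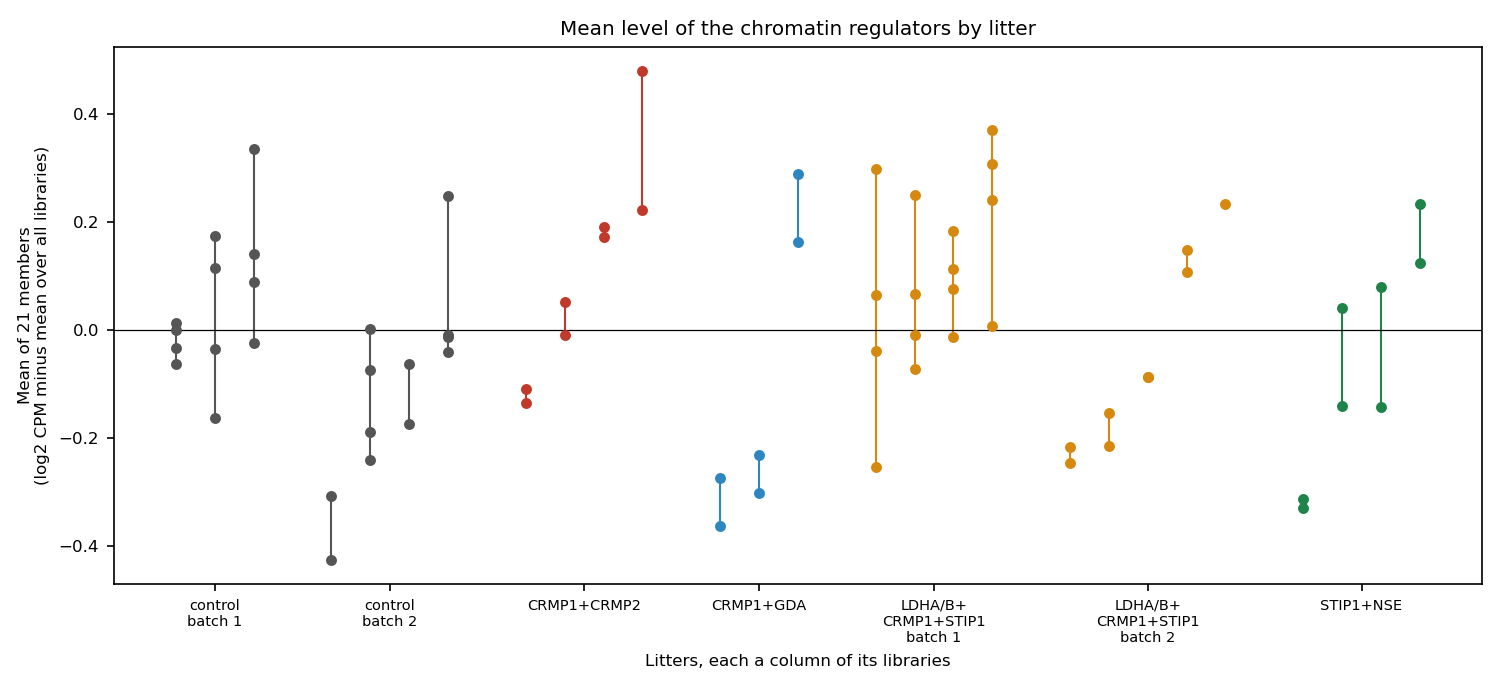
Mean over the 21 members in each library (points; log2 CPM minus each member's mean over all 71 libraries), with the libraries of a litter joined by a line and litters ordered within each exposure and batch. Litters of 1 exposure spread over most of the vertical range, as in CRMP1+GDA, where 2 litters lie below -0.2 and the litter of dam 9_8 above 0.1.

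The libraries of a litter were alike in batch 2. There the SD of the litter means of the 21 members was 0.21 over 20 litters and the SD within litters 0.09, and litters held 88.7% of the variance. Of the 19 litters with at least 2 pups, 9 had every pup below 0, and 5 had every pup above 0. In batch 1 the SD between the 7 litter means was 0.09, the SD within litters was 0.15, and litters held 27.98% of the variance. Such a share is above 0 even without a litter effect, and more so with fewer pups a litter. The shares of the 2 batches are therefore not directly comparable. They also hold any difference between exposures, because each litter had 1 exposure.

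The members moved together from library to library. Over the 210 pairs of members, the Pearson correlation of log2 CPM across the 71 libraries had a median of 0.74 and a range of -0.02 to 0.95, and 185 pairs were above 0.5. Within batch 2 the median was 0.80 (43 libraries), and within batch 1 it was 0.66 (28 libraries). The highest pair was Arid1a with Ash1l and the lowest was Chd7 with Ehmt1. By the mean correlation with the other 20, Arid1a (0.81), Ash1l (0.81) and Chd8 (0.80) were the most typical members, and Chd7 (0.49), Ehmt1 (0.53) and Ctcf (0.54) the least. These values describe libraries that share litters, depth and scaling, and no test is attached to them.

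**Figure D4:**
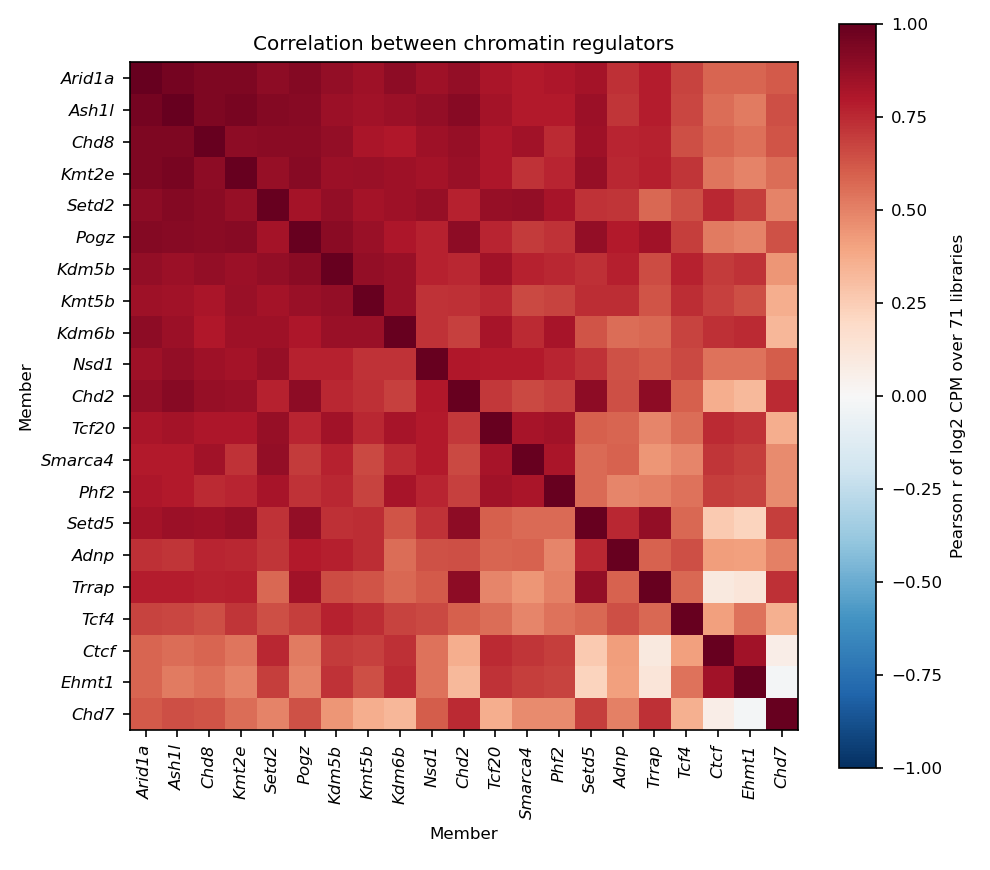
Pearson correlation (colour, from -1 in blue to 1 in red) of log2 CPM over 71 libraries for each pair of the 21 members, ordered by mean correlation with the others. Most cells are red (median 0.74), and Chd7, Ehmt1 and Ctcf form the paler edge.

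The shared movement followed the length of the transcript. Among 12456 other genes, the correlation of a gene with the mean of the members rose with its exon length (Spearman's rho 0.52 across genes, which are not independent replicates). Its median was 0.59 in 1138 other genes of at least 5000 exon bases and -0.30 in 5360 genes below 2000. Over the 27 litters, the mean of the members rose with the share of counts in other genes of at least 5000 exon bases (r = 0.96, permutation p = 1e-05, the smallest that 100000 permutations can give, BH-adjusted p = 5e-05 over 5 relations; rho = 0.93, permutation p = 1e-05, adjusted p = 5e-05). The r was 0.94 over 7 litters in batch 1 and 0.97 over 20 in batch 2. Without the 2 litters farthest from the median share it was 0.94. Of the members, 16 have at least 5000 exon bases themselves, so this relation is mostly one of long genes with other long genes. The share was also added as a measure after the data were seen. Its p-values therefore do not test a link particular to the members, and no conclusion is drawn from them. The relations with the neuron score (r = -0.33, permutation p = 0.0992, adjusted p = 0.165; rho = -0.37, p = 0.0569, adjusted p = 0.0948) and with the progenitor score (r = 0.22, permutation p = 0.261, adjusted p = 0.326; rho = 0.24, p = 0.222, adjusted p = 0.278) did not pass 0.05. The choroid plexus and pineal scores separated the batches, so only values within a batch are given for them, without a test. For the choroid plexus score r was -0.23 over the 7 litters of batch 1 and -0.38 over the 20 of batch 2. For the pineal score r was -0.94 and 0.24, and in batch 1 its markers summed to 2.52 to 8.26 CPM. The 5 relations of the adjustment include both scores over all litters. Fold changes also followed length. In CRMP1+CRMP2, 14.3% of 1144 other genes of at least 5000 exon bases rose and 0.787% fell, while 2.37% of 5491 genes below 2000 bases rose and 9.25% fell. The median log2 fold change was 0.11 in the longer class and -0.05 in the shorter. The 5 partner genes that fell in CRMP1+CRMP2 had 1562 to 3751 exon bases, and the 16 that rose had 969 to 10610.

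**Figure D5:**
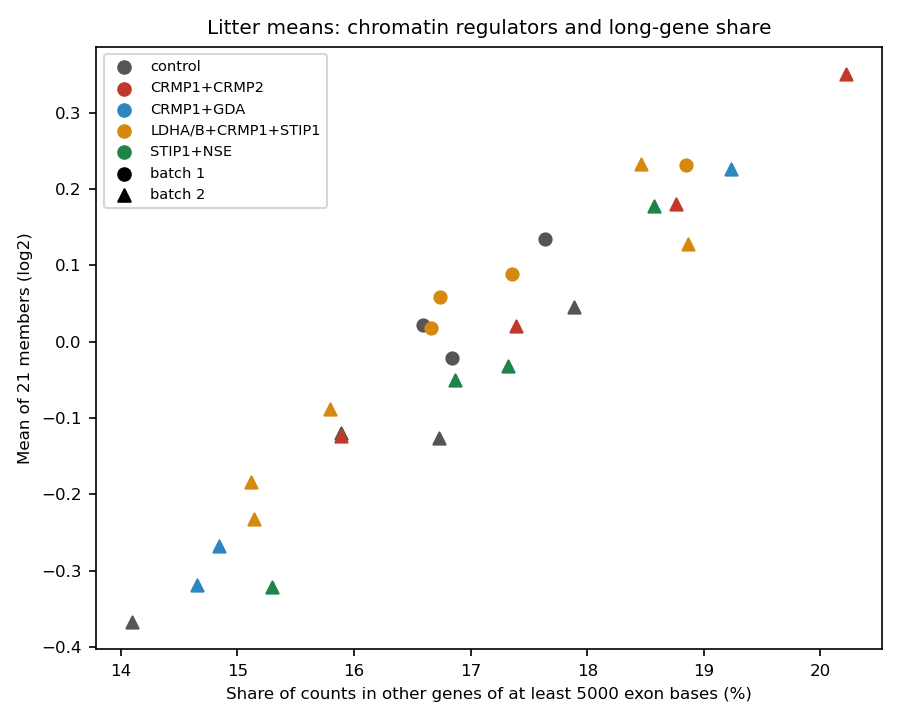
Mean of the 21 members (vertical axis, log2) against the share of counts in other genes of at least 5000 exon bases (horizontal axis, percent) for each of 27 litters, coloured by exposure, with circles for batch 1 and triangles for batch 2. The litters lie close to 1 rising line in both batches (r = 0.96).

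Because the members moved together, their promoter windows (250 bases before to 50 after the annotated start) were read from RefSeq sequences of the GRCr8 build, in which 15 of the 21 had an entry. Their median GC content was 66.3%, from 39.7% in Tcf4 to 86.3% in Phf2, against 61.0% over the windows of 10371 tested genes. Their median CpG observed-to-expected ratio was 0.81 against 0.76. The GC box GGGCGG, searched on both strands with overlaps allowed, was in 14 of 15 windows and in 61.9% of all windows. The one without it was that of Pogz. The NRF1 core GCGCATGC was in 1 window, that of Smarca4 (4.70% of all windows), and the CAAT box CCAAT was in 4 (36.8%). The ETS core CCGGAAG, the YY1 core AAGATGGC and the cyclic AMP element TGACGTCA were in none (16.5%, 5.14% and 3.12% of all windows). A match is a run of letters and not a binding site. The windows of 4 members that were called in CRMP1+CRMP2 are shown as examples. They hold 5 GC boxes in Kdm6b, 1 in Kdm5b, 3 in Ehmt1 and 5 in Arid1a. Capitals mark GGGCGG or its reverse complement CCGCCC, and in Arid1a the leading 3 overlap.
Kdm6b, chr10:54640965-54641264, minus strand: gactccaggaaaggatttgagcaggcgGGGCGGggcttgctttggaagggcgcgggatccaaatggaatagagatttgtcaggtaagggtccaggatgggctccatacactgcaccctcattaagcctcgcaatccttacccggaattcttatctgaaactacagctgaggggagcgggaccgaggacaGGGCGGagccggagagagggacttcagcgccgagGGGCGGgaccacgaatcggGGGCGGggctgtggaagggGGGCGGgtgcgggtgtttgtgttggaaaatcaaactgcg
Kdm5b, chr13:48554147-48554446, plus strand: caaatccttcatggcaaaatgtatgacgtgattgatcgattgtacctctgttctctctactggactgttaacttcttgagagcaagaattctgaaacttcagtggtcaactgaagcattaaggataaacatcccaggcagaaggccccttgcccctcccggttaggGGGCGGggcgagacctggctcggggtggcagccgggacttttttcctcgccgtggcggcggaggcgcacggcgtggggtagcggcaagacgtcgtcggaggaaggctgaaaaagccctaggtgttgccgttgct
Ehmt1, chr3:28127077-28127376, minus strand: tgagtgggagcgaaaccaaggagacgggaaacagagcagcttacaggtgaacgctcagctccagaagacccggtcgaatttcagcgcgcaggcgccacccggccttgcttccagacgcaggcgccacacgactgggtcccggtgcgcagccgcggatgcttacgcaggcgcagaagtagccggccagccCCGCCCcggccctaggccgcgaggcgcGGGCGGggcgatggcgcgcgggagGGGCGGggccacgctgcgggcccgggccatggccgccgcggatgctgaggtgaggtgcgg
Arid1a, chr5:151265337-151265636, minus strand: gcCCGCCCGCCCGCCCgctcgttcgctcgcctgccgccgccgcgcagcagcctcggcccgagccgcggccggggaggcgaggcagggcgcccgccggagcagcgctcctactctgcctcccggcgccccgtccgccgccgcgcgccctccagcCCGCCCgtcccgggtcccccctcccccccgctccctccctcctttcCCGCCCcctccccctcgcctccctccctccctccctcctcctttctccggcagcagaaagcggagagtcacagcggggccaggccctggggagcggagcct

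Batch had its own differences in the unexposed brain. In the 12 controls of batch 2 against the 12 of batch 1, with sex as covariate, 12 members were lower and 0 higher at FDR below 0.1, in a comparison in which 20.2% of all genes were called lower and 21.4% higher. The median of the members was -0.15 against 0.002 over all genes. Ctcf had the smallest p, with 27.5 to 33.8 RPKM and a median of 30.8 in batch 2 against 32.9 to 42.2 and a median of 37.1 in batch 1 (log2 fold change -0.26 ± 0.04, SE; edgeR adjusted p = 2.55e-05). Smarca4 had 64.1 to 76.1 RPKM in batch 2 and 73.8 to 95.6 in batch 1 (-0.22 ± 0.04, adjusted p = 0.000197). For both the ranges overlapped by little. Tcf20, a nuclear coregulator, was at -0.20 ± 0.04, Chd8 at -0.24 ± 0.06, Ehmt1 at -0.15 ± 0.04 and Setd2 at -0.19 ± 0.05. Tcf4 (0.08 ± 0.11), Adnp (0.002 ± 0.05), Chd7 (0.02 ± 0.10) and Trrap (0.08 ± 0.16) did not pass. With litter as a random effect 8 members were lower (10.03% of all genes). Of the 130 partner genes 46 were lower and 6 higher. All 8 choroid plexus markers were higher in batch 2 (median log2 fold change 3.74), 4 of 12 neuron markers were lower and 2 higher, and 5 of 10 progenitor markers were lower and 3 higher. The part of these cells in the differences of the members was not tested. The batches differ in litters, processing and sequencing, which cannot be told apart here.

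Sex made no detectable difference. With litter as a block, 7 members had higher and 14 lower estimates in males, from -0.08 to 0.10 on the log2 scale. None was at p below 0.05 (8.05% of all genes were), and the smallest adjusted p was 0.634 (edgeR).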

How the data were processed

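Poly-A RNA of 71 slices was sequenced as read pairs. Per the labels and the study's methods, the authors aligned reads to rn7 with STAR 2.5.4b and counted them per gene with featureCounts; its options, strand setting included, are not given in the sources used here. The deposited values are raw counts, with exon length beside them. Of the counts from 1 to 9, 74.5% were even, so a fit on halved counts was run. Batch was read from the sample titles and litter from the dam labels.

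Counts were tested with edgeR 4.0.16 (R 4.3.3, limma 3.58.1): TMM factors, a quasi-likelihood fit and 1 surrogate variable (sva 3.50.0) in comparisons with controls, sex as covariate within batches, and litter as block for sex. Genes needed 1 CPM in at least 8 samples (more than 1 CPM in at least 2 for single patterns). The thresholds were FDR below 0.1 and, separately, p below 0.05. Alternatives were median-ratio factors, DESeq2 1.42.0, no filter, other covariates, batch 2 alone, and litter sums, random effects and omission. The scripts were tested on simulated data. Those data had a batch shift but no litter effect, so they do not show how the p-values behave where litter mates are alike. Replicates are pups, and p-values treat litter mates as separate unless litter is in the fit.

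Named with their values were members past FDR below 0.1 against controls, the 4 highest and 4 lowest in level, at most 6 for batch or sex, and at most 3 partner genes a list and comparison; others stand for completeness. The members and gene lists were chosen with earlier results of these data known. The choroid plexus, pineal, neuron and progenitor lists are markers.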

Additional observations from a re-analysis of the deposited data

Results flagged for a closer look

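Within groups of 4 to 10 libraries, 88 sets of values (the 21 members and their mean in 4 groups) were screened for a library far from the rest, and 12 stood out, where chance gives about 1 in 20. Members share libraries, so these are not 12 separate events. In CRMP1+CRMP2 the same male, of the litter of dam 9_6, was highest in 8 members. It had 60.4 RPKM of Arid1a against 37.1 to 45.8 in the other 7 libraries, 53.8 of Kmt2e against 34.8 to 41.3, and 31.3 of Kmt5b against 22.4 to 26.1. It also had 43.2 RPKM of Ehmt1 against 30.03 to 36.2, 51.3 of Kdm5b against 30.4 to 39.7, and 44.8 of Kdm6b against 25.0 to 30.6. Phf2 was at 28.7 RPKM against 21.1 to 24.7, and Pogz, a zinc-finger protein of heterochromatin, at 31.4 against 20.2 to 24.5. That library also had a share of 20.5% of counts in other genes of at least 5000 exon bases, the highest of the group.

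In CRMP1+GDA 1 library had 38.1 RPKM of Ehmt1 against 28.9 to 32.3 and 35.4 of Kdm6b against 19.9 to 23.3. In LDHA/B+CRMP1+STIP1 of batch 2 another had 45.3 RPKM of Kdm5b against 28.8 to 34.2 and 85.7 of Tcf4 against 46.4 to 65.0.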

How the results depend on the processing

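The 8 calls in CRMP1+CRMP2 depended on the fit. The number of members called higher was 3 with batch and sex as covariates, with 1.45% of all genes called higher. It was 0 in batch 2 alone (0.397% of all genes), 0 with counts summed per litter (0%) and 0 with litter as a random effect (0.0709%). Among covariates added after the data were seen it was 0 with the share of long genes (3.08% of all genes). There 4 were higher at p below 0.05 (8.51%). The number called was 0 with the pineal score (0.0315%) and 19 with the choroid plexus score (7.71%). Leaving out 1 litter, or the 1 male above, gave 0 to 17 calls (0.237% to 11.3% of all genes). It gave 7 to 21 members higher at p below 0.05 (5.02% to 15.9%). The direction of the 8 named members was the same in every one of these fits. The count was 8 to 10 with median-ratio factors, DESeq2, halved counts or no filter (3.84% to 5.74% of all genes). In the pooled comparison the members higher at p below 0.05 were 0 in batch 2 alone (3.50% of all genes). There was 1 with litter sums (1.20%), and there were 15 with the choroid plexus score (7.61%). With 7 principal components there were 6 (4.76%), and with the share of long genes 7 (7.98%). With 1 litter left out there were 2 to 8 (4.54% to 7.29%). There were 2 without the control litter of dam 9_5 (6.90%) and 8 without that of dam 9_10 (7.29%). For LDHA/B+CRMP1+STIP1 the count was 5 with batch and sex as covariates (4.48% of all genes) and 2 to 5 with 1 litter left out (3.16% to 5.62%). It was 2 by DESeq2 within batch 1 (3.30%) and 0 with litter as a random effect within batch 2 (0.487%). With 1 litter left out the count was 0 to 4 in CRMP1+GDA, and it was 4 without the litter of dam 9_3 (2.83% of all genes). Without that of dam 9_8, 0 were higher (7.36%), 7 were lower (7.38%) and the median turned to -0.12. In STIP1+NSE the count was 0 to 9, and it was 9 without the litter of dam 9_2 (3.93%). CRMP1+CRMP2 minus STIP1+NSE had 0 with litter as a random effect (0.646%). The cause of these changes was not tested. Raw library sizes moved median RPKM by at most 2.25%. No paired analysis was possible because replicate numbers follow listing order and each litter has 1 exposure.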
